A study of Mus musculus with 2 samples.

Results

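Choroid plexus secretion and ion transport genes were followed as 10 genes chosen by symbol out of the 25906 genes listed in the files: Ttr, Enpp2, Kl, Folr1, Clic6, Aqp1, Slc4a5, Slc12a2, Car2 and Trpm3. All 10 were found and none was used to choose cells. The choroid plexus is the epithelium in the brain ventricles that secretes cerebrospinal fluid. Its cells move sodium, chloride, bicarbonate and water toward the ventricle through pumps, cotransporters and channels on both of their faces, and they export carrier proteins and hormones into the fluid. Dissociated choroid plexus is also a known source of free RNA in cell suspensions.

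Whole brains of adult mice had been dissociated and sorted for 2 cell types, endothelial cells and astrocytes, with 1 single-cell library for each of 2 genotypes. IL34LacZ/LacZ mice, named as the knockout in the series text, carry LacZ alleles of Il34 on both chromosomes. IL34LacZ/+ mice, named there as the wild type, carry one LacZ allele, so both groups share that allele and neither is free of it. Il34 encodes interleukin-34, a ligand of the receptor Csf1r. The sources used here do not state the number or sex of the mice, the sort markers or the part of Il34 that LacZ replaces.

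The library labelled IL34LacZ/LacZ held 5400 barcodes and 36696941 UMIs (unique molecular identifiers, each a counted transcript molecule), and the library labelled IL34LacZ/+ held 3901 barcodes and 26679053 UMIs. Cells had to show 1000 UMIs and 500 genes or more, with mitochondrial UMIs making up 15% or less, which left 1175 cells labelled IL34LacZ/LacZ and 1668 labelled IL34LacZ/+. Il34 itself stood at 524 CPM (counts per 1000000 UMIs) in pericytes of the library labelled IL34LacZ/LacZ (129 UMIs) and 371 CPM in those of the library labelled IL34LacZ/+ (59 UMIs), so in pericytes its 3-prime tags were not lower in the library labelled IL34LacZ/LacZ. In the 14 fibroblast gated cells of each library Il34 was higher in the library labelled IL34LacZ/LacZ. It stood at 534 CPM (423 to 666, 79 UMIs) there and 271 CPM (195 to 368, 41 UMIs) in the library labelled IL34LacZ/+. Border cells held 0 Il34 UMIs in the library labelled IL34LacZ/LacZ and 6 in the library labelled IL34LacZ/+, and choroid plexus cells 0 in the library labelled IL34LacZ/LacZ and 4 in the library labelled IL34LacZ/+. The labels could not be checked from these values, and the names IL34LacZ/LacZ and IL34LacZ/+ stand throughout for the libraries so labelled. A tag outside the replaced part of the gene checks nothing. With 1 library per genotype no difference between them has a replicate check, no test was possible, and the 95% intervals given with levels, shares and ratios allow for counting error alone.

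Cells were put into classes by lists of marker genes that leave out the 10 genes. The choroid plexus gate, with 15 measured markers such as the potassium channel gene Kcnj13, the transcription factor gene Otx2 and the prolactin receptor gene Prlr, took 257 cells of the library labelled IL34LacZ/LacZ (21.9% of kept cells, interval 19.5 to 24.4) and 349 cells of the library labelled IL34LacZ/+ (20.9%, 19.0 to 23.0). These cells were no target of the sort. In IL34LacZ/LacZ 0 gated cells were within 2 times above the threshold of the gate and 28 kept cells within 2 times below it, and in IL34LacZ/+ 1 and 35. A further 26 cells of IL34LacZ/LacZ and 20 cells of IL34LacZ/+ passed this gate together with another and were left out.

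In the median choroid plexus gated cell the summed endothelial markers stood at 0 CPM in IL34LacZ/LacZ and 32.4 CPM in IL34LacZ/+, and the astrocyte markers at 188 CPM in IL34LacZ/LacZ and 192 CPM in IL34LacZ/+. Erythrocyte markers stood at 1556 CPM in IL34LacZ/LacZ and 1324 CPM in IL34LacZ/+, ependymal markers at 568.5 CPM in IL34LacZ/LacZ and 598 CPM in IL34LacZ/+, and microglia markers at 247 CPM in IL34LacZ/LacZ and 341 CPM in IL34LacZ/+. Oligodendrocyte and pericyte markers were at a median of 0 in both libraries, whereas the choroid plexus markers stood at 8843 CPM in IL34LacZ/LacZ and 9551 CPM in IL34LacZ/+. Of the choroid plexus markers Ecrg4 was also high in border cells, a class gated by Slc47a1 and 5 further genes, with 2219 CPM in IL34LacZ/LacZ and 2256 CPM in IL34LacZ/+. Col8a1 was higher there than in choroid plexus cells, at 350.5 CPM in IL34LacZ/LacZ and 451 CPM in IL34LacZ/+, against 136 CPM in IL34LacZ/LacZ and 124 CPM in IL34LacZ/+ in choroid plexus cells. The summed choroid plexus markers of the median border cell stood at 2366 CPM in IL34LacZ/LacZ and 2872 CPM in IL34LacZ/+. Both are above the level set for the gate, 20 per 10000 UMIs. Border cells above that level failed the gate on the number of markers and are in neither count given near its threshold. Ttr, which the gate did not use, filled at least 8.02% of the UMIs of every choroid plexus gated cell in IL34LacZ/LacZ and at least 5.67% in IL34LacZ/+.

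Promoter windows from RefSeq (build GRCm38.p6) were matched by symbol for 4 of the 10 genes. The 250 bases before the annotated start are shown for the klotho gene Kl and the water channel gene Aqp1, highest here in choroid plexus cells, and for Trpm3, highest in astrocytes. Capitals mark CpG dinucleotides. The windows, all on the plus strand, are chr5:150952357-150952606 for Kl, chr6:55336049-55336298 for Aqp1 and chr19:22138796-22139045 for Trpm3, which has a second start further along the gene.
Kl: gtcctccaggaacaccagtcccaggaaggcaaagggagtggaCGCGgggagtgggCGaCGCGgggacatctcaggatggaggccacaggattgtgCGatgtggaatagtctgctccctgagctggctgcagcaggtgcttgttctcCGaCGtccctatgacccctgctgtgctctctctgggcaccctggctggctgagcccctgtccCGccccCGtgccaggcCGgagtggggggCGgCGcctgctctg
Aqp1: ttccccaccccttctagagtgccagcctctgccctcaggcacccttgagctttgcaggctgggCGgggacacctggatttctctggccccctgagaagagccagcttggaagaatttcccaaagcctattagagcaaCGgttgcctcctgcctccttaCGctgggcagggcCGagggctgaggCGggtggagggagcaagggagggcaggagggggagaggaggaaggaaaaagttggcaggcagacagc
Trpm3: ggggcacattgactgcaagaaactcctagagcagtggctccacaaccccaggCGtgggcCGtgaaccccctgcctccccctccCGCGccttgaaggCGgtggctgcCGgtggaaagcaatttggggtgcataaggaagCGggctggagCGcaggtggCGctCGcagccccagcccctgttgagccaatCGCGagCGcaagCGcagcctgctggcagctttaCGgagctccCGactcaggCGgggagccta
The Trpm3 window held 17 CpG and was 66.4% G and C, the Kl window held 13 and was 66.8%, and the Aqp1 window held 5 and was 62%. The letters TAATCC, read by Otx2-type homeodomain factors, GTAAACA, read by forkhead factors, and TATAA, the core of the TATA box, were searched on both strands, and TATAA can overlap its own reverse complement. None of these letters was in the 3 windows, while the Slc4a5 window, not shown because it overlaps an annotated exon, held TATAA on both strands. Of 32817 RefSeq windows of this length 6.25% held TAATCC, 3.16% GTAAACA and 22.8% TATAA.

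The 10 genes together supplied 26.3% of all UMIs of choroid plexus gated cells in IL34LacZ/LacZ and 30.9% in IL34LacZ/+. Most of that was Ttr, with 24.4% of the UMIs in IL34LacZ/LacZ and 29.05% in IL34LacZ/+. The median cell held UMIs of 9 of the 10 genes in both libraries, and all 10 were found in 119 of 257 cells of IL34LacZ/LacZ and 129 of 349 cells of IL34LacZ/+.

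Ttr (chromosome 18, 20665280 to 20674321, plus strand, GRCm38) encodes transthyretin, which carries thyroxine and retinol-binding protein and which the choroid plexus secretes into the fluid. It made up 244301 CPM in IL34LacZ/LacZ and 290499 CPM in IL34LacZ/+. The interquartile range over cells was 202398 to 293378 CPM in IL34LacZ/LacZ and 251981 to 335562 CPM in IL34LacZ/+, so the cells of the libraries overlapped. The median cells stood close to the sums, at 244734 CPM in IL34LacZ/LacZ and 295972 CPM in IL34LacZ/+, and the highest cell held 1.38% of the Ttr UMIs in IL34LacZ/LacZ and 0.990% in IL34LacZ/+.

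Enpp2 (chromosome 15, 54838901 to 54952892, minus strand) encodes autotaxin, a secreted enzyme that makes lysophosphatidic acid. Its level in choroid plexus cells was 14202 CPM in IL34LacZ/LacZ and 14589.9 CPM in IL34LacZ/+, with UMIs in every cell. Kl (chromosome 5, 150952607 to 150993817, plus strand) encodes klotho, a membrane protein that is also shed and that acts as a coreceptor of fibroblast growth factor 23. Kl stood at 877 CPM (847 to 907) in IL34LacZ/LacZ and 808 CPM (783 to 834) in IL34LacZ/+, with UMIs in 97.3% of cells in IL34LacZ/LacZ and 98.6% in IL34LacZ/+. Of the red cell barcodes used as background further on, 1.70% held a Kl UMI in IL34LacZ/LacZ and 0.467% in IL34LacZ/+. Folr1 (chromosome 7, 101858331 to 101870788, minus strand) encodes folate receptor alpha, which carries folate across this epithelium. It had 1070.2 CPM in IL34LacZ/LacZ and 1077 CPM in IL34LacZ/+, and its annotation overlaps Anapc15 on the other strand.

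Clic6 (chromosome 16, 92485736 to 92541243, plus strand), of the chloride intracellular channel family, had 478 CPM (456 to 500.4) in IL34LacZ/LacZ and 398 CPM (380.0 to 416) in IL34LacZ/+, with the median cell at 437 CPM in IL34LacZ/LacZ and 349.9 CPM in IL34LacZ/+. Aqp1 (chromosome 6, 55336432 to 55348555, plus strand) encodes the water channel of the ventricular face and was thinly counted, with 309 UMIs in IL34LacZ/LacZ and 415 UMIs in IL34LacZ/+. That was 81.8 CPM (72.9 to 91.4) in IL34LacZ/LacZ and 88.8 CPM (80.5 to 97.8) in IL34LacZ/+. Aqp1 UMIs were in 66.2% of cells in IL34LacZ/LacZ and 57.9% in IL34LacZ/+, and after each cell was thinned to 2000 UMIs in 15.9% in IL34LacZ/LacZ and 16.4% in IL34LacZ/+, with 6 shallower cells of IL34LacZ/LacZ and 1 of IL34LacZ/+ left out. Of red cell barcodes 0.251% held an Aqp1 UMI in IL34LacZ/LacZ and 0.779% in IL34LacZ/+.

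Slc4a5 (chromosome 6, 83219828 to 83304945, plus strand) encodes a sodium bicarbonate cotransporter and had 146 CPM (134 to 159) in IL34LacZ/LacZ and 126 CPM (116 to 137) in IL34LacZ/+. Slc12a2 (chromosome 18, 57878678 to 57946821, plus strand) encodes the sodium, potassium and chloride cotransporter NKCC1 and had 275 CPM (258 to 292) in IL34LacZ/LacZ and 248 CPM (234 to 263) in IL34LacZ/+. Car2 (chromosome 3, 14886273 to 14900770, plus strand) encodes carbonic anhydrase 2, which supplies bicarbonate and protons, and had 653 CPM (627 to 679) in IL34LacZ/LacZ and 669.5 CPM (646 to 693) in IL34LacZ/+. Trpm3 (chromosome 19, 22139046 to 22995410, plus strand) encodes a cation channel and hosts the miRNA gene Mir204, which was not measured. Trpm3 had 1109.7 CPM (1076 to 1144) in IL34LacZ/LacZ and 457 CPM (438 to 477) in IL34LacZ/+, while its median cell had 383 CPM in IL34LacZ/LacZ and 374 CPM in IL34LacZ/+.

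**Figure D1:**
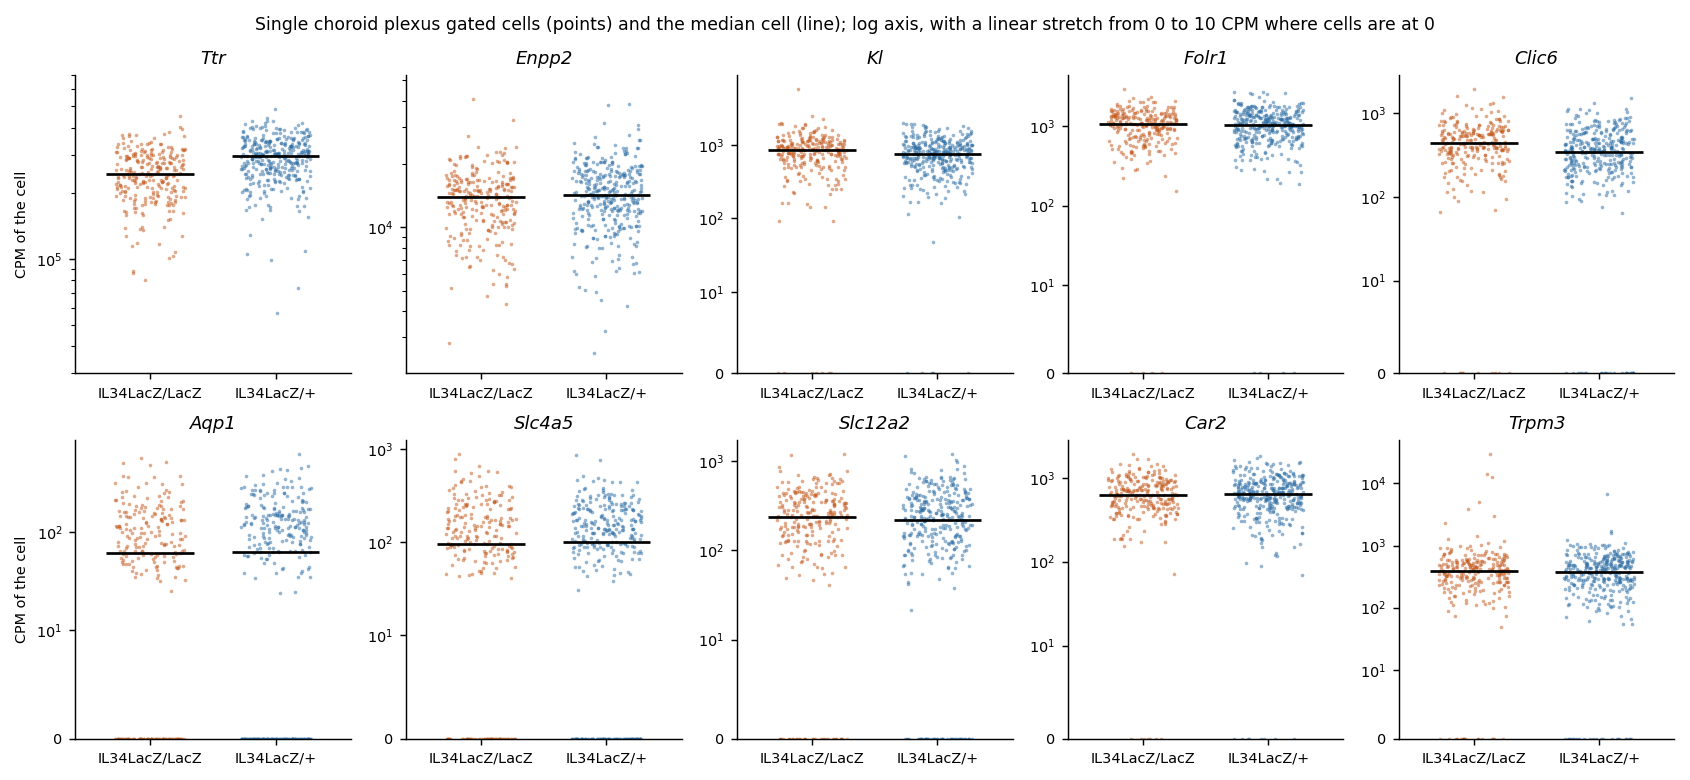
CPM of each gene in single choroid plexus gated cells (points) of the library labelled IL34LacZ/LacZ (left, 257 cells) and the library labelled IL34LacZ/+ (right, 349 cells), with the median cell as a line, on log axes that run linearly from 0 to 10 CPM for all genes but Ttr and Enpp2. The clouds overlap for all 10 genes, the Ttr median is 244734 CPM in IL34LacZ/LacZ and 295972 CPM in IL34LacZ/+, and the highest Trpm3 points of IL34LacZ/LacZ stand at 29722, 13995 and 12729.5 CPM.

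UMIs of these genes were also found in barcodes that hold other cells. Red cell barcodes, with at least 80% haemoglobin UMIs, served as droplets that should lack choroid plexus transcripts. There were 1591 in IL34LacZ/LacZ with a median of 11003 UMIs and 642 in IL34LacZ/+ with a median of 12647.5 UMIs, against a median of 13791 UMIs in IL34LacZ/LacZ and 12329 UMIs in IL34LacZ/+ for choroid plexus gated cells. Ttr was found in 97.2% of the red cell barcodes in IL34LacZ/LacZ and 98.6% in IL34LacZ/+, but at a median of 4 UMIs in IL34LacZ/LacZ and 5 UMIs in IL34LacZ/+. Choroid plexus cells had a median of 3347 Ttr UMIs in IL34LacZ/LacZ and 3396 in IL34LacZ/+, so the level and not the share of barcodes with a UMI set them apart.

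In IL34LacZ/LacZ the median Ttr count was 5 UMIs in endothelial cells and pericytes, 7 in astrocytes, 9 in border cells and 11 in oligodendrocytes. In IL34LacZ/+ it was 7 UMIs in endothelial cells and pericytes, 11 in astrocytes and border cells and 12 in oligodendrocytes. In all of these classes the Ttr level was between 0.258% and 0.554% of that in choroid plexus cells, in the shallower microglia it was 0.823% in IL34LacZ/LacZ and 0.965% in IL34LacZ/+, and in red cell barcodes it was 0.162% in IL34LacZ/LacZ and 0.164% in IL34LacZ/+.

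Where all such UMIs come from choroid plexus RNA, each gene keeps the ratio to Ttr that it has in choroid plexus cells. Each of the other 9 genes was therefore counted per Ttr UMI in 8 further classes, and a class was singled out where the ratio passed 5 times that of choroid plexus cells in both libraries with at least 10 UMIs in each. By that rule 6 of the 9 genes stood above the Ttr ratio in at least one class, and Folr1, Aqp1 and Slc4a5 in none. Folr1, Aqp1 and Slc4a5 did not reach 10 UMIs in both libraries in any of the 8 classes, so they could not meet the rule. The rule sets a gene against choroid plexus RNA alone, not against free RNA from other cells. Barcodes under 1000 UMIs met it too. There Slc12a2 stood at 8.10 times in IL34LacZ/LacZ and 10.4 times in IL34LacZ/+. Car2 stood there at 18.7 times in IL34LacZ/LacZ and 25.9 times in IL34LacZ/+, and Trpm3 at 15.8 and 15.2 times. The part of free RNA from other cells was not tested. Among classes of at least 50 cells in both libraries, 7 genes had their highest level in choroid plexus cells, Slc12a2 and Car2 in oligodendrocytes and Trpm3 in astrocytes.

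**Figure D2:**
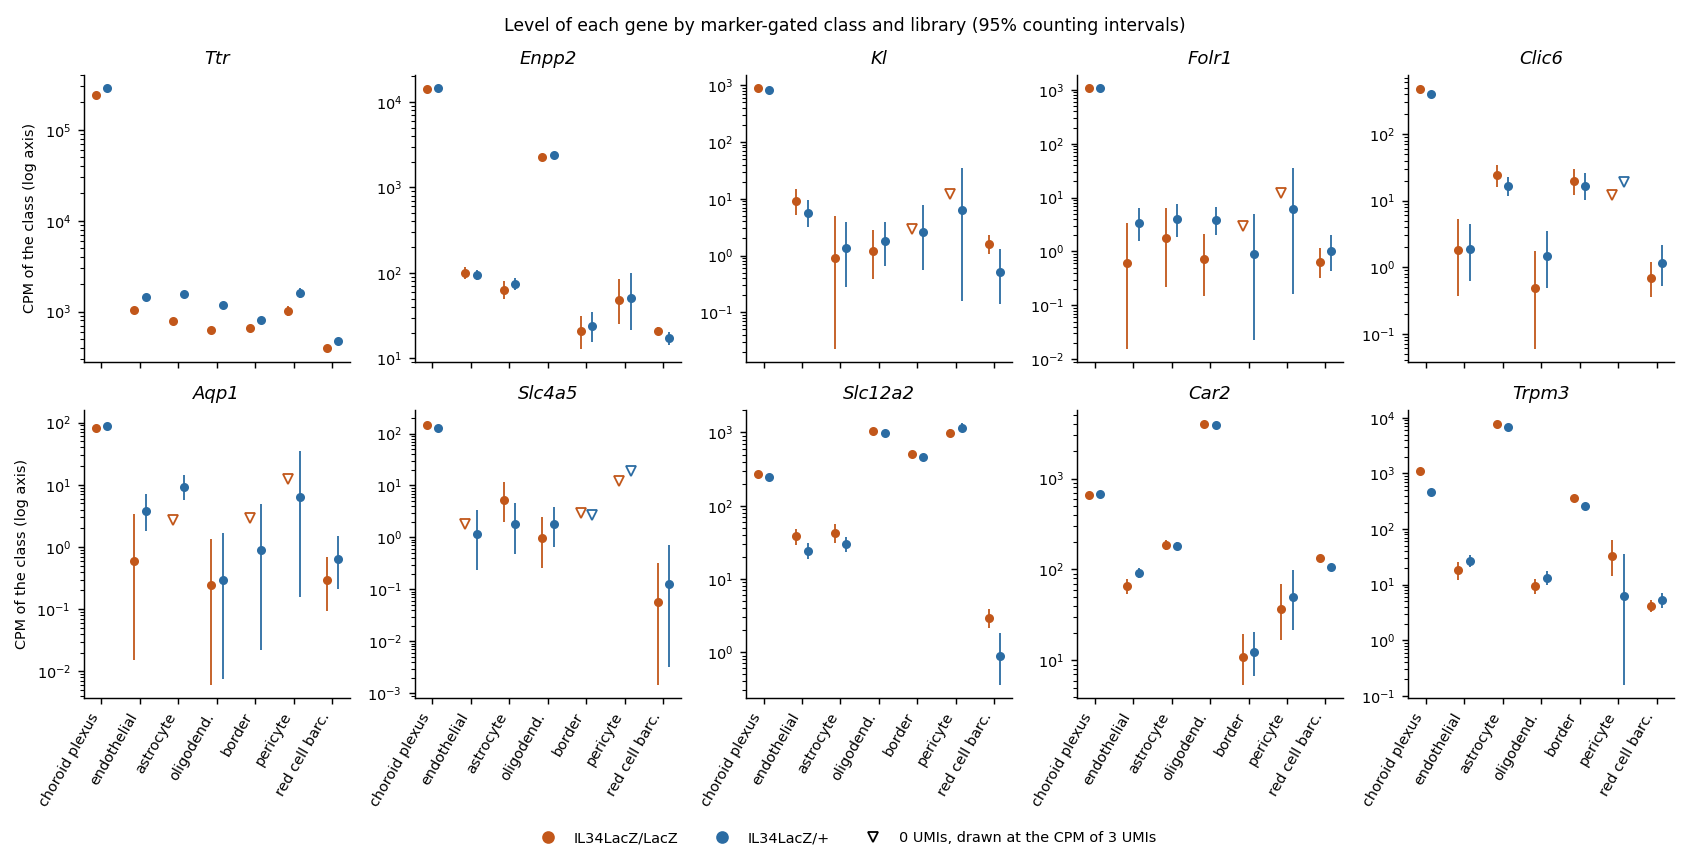
CPM of each gene in 6 gated classes and in red cell barcodes (log axes), with the library labelled IL34LacZ/LacZ in orange at the left and the library labelled IL34LacZ/+ in blue at the right of each pair, bars giving 95% counting intervals and open triangles marking 0 UMIs at the CPM of 3 UMIs. In the classes drawn Ttr outside choroid plexus cells is at most 0.554% of its level there, Car2 peaks in oligodendrocytes, and Trpm3 peaks in astrocytes at 7886 CPM in IL34LacZ/LacZ and 6823 CPM in IL34LacZ/+.

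Folr1 was at the ratio of choroid plexus cells or under it in most classes. In IL34LacZ/LacZ endothelial cells held 1 Folr1 UMI, astrocytes 2 and oligodendrocytes 3, which were 0.588, 2.27 and 1.15 per 1000 Ttr UMIs. In IL34LacZ/+ endothelial cells and astrocytes held 9 each and oligodendrocytes 13, which were 2.39, 2.58 and 3.30 per 1000 Ttr UMIs. Red cell barcodes had 1.61 in IL34LacZ/LacZ and 2.14 in IL34LacZ/+. Folr1 UMIs were in 98.4% of choroid plexus cells and 0.691% of red cell barcodes in IL34LacZ/LacZ, and in 98.9% and 1.25% in IL34LacZ/+.

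Kl gave 1 UMI in astrocytes of IL34LacZ/LacZ, 0.317 times the choroid plexus ratio to Ttr (0.00802 to 1.77), and 3 in those of IL34LacZ/+, 0.309 times (0.0637 to 0.904). Oligodendrocytes held 5 Kl UMIs in IL34LacZ/LacZ, 0.535 times (0.174 to 1.25), and 6 in IL34LacZ/+, 0.547 times (0.201 to 1.19), so 3 of these 4 intervals include 1. In endothelial cells it stood at 2.46 times in IL34LacZ/LacZ and 1.43 times in IL34LacZ/+, on 15 UMIs in each library. The 14 fibroblast gated cells of each library were apart. They had 20 Kl UMIs (135 CPM) in IL34LacZ/LacZ and 14 (92.6 CPM) in IL34LacZ/+, in 57.1% of cells in both, which was 52.6 times the ratio in IL34LacZ/LacZ and 30.3 times in IL34LacZ/+.

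Aqp1 gave 0 UMIs in astrocytes of IL34LacZ/LacZ, where 3 UMIs would be 2.66 CPM, and 21 UMIs in those of IL34LacZ/+, of which 1 cell held 12, or 57.1%. In endothelial cells it gave 1 UMI in IL34LacZ/LacZ and 10 in IL34LacZ/+, 9 of the 10 in 1 cell. Slc4a5 had 6 UMIs in astrocytes and 4 in oligodendrocytes of IL34LacZ/LacZ, 4 and 6 in those of IL34LacZ/+, and 1 in the red cell barcodes of each library. Neither gene reached 10 UMIs in both libraries in any of the 8 classes, so neither met the rule. For Aqp1 the astrocyte counts per Ttr UMI were 0 times the choroid plexus ratio in IL34LacZ/LacZ. They were 19.7 times (12.05 to 30.5) in IL34LacZ/+. For Slc4a5 they were 11.4 times in IL34LacZ/LacZ and 2.64 times in IL34LacZ/+. Aqp1 in endothelial cells stood at 1.76 times in IL34LacZ/LacZ and 8.68 times (4.13 to 16.1) in IL34LacZ/+. Slc4a5 in oligodendrocytes stood at 2.57 times in IL34LacZ/LacZ and 3.505 times (1.28 to 7.675) in IL34LacZ/+. In each of these pairs the interval of the higher ratio left out 1 and the other included it. For Slc4a5 1 cell held 3 of the 6 astrocyte UMIs of IL34LacZ/LacZ and 5 of the 6 oligodendrocyte UMIs of IL34LacZ/+. The part of free RNA was not tested.

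Clic6 was close to the Ttr ratio in endothelial cells, at 0.901 times in IL34LacZ/LacZ and 0.969 times in IL34LacZ/+, and in red cell barcodes, at 0.899 times in IL34LacZ/LacZ and 1.76 times in IL34LacZ/+. In astrocytes it had 24.0 CPM (27 UMIs) in IL34LacZ/LacZ and 16.4 CPM (37 UMIs) in IL34LacZ/+, 15.7 times the ratio in IL34LacZ/LacZ and 7.74 times in IL34LacZ/+. Clic6 UMIs were in 13.9% of astrocytes in IL34LacZ/LacZ and 9.92% in IL34LacZ/+. Border cells had 19.7 CPM in IL34LacZ/LacZ and 16.8 CPM in IL34LacZ/+, 15.4 times the ratio in IL34LacZ/LacZ and 15.03 times in IL34LacZ/+. These levels were 4.12% to 5.02% of those in choroid plexus cells, and no single cell held over 22.2% of the UMIs.

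Enpp2 had a second site in oligodendrocytes, with 2249 CPM (2204 to 2295) in IL34LacZ/LacZ and 2382 CPM (2330 to 2435) in IL34LacZ/+. That was 61.4 times the Ttr ratio and 15.8% of the choroid plexus level in IL34LacZ/LacZ, and 40.4 times and 16.3% in IL34LacZ/+. The median oligodendrocyte had 2198 CPM in IL34LacZ/LacZ and 2347 CPM in IL34LacZ/+, and UMIs were in 100% of them. Enpp2 stayed under 5 times the ratio in the other classes. Endothelial cells were above it, at 1.67 times (1.42 to 1.94) in IL34LacZ/LacZ and 1.31 times (1.15 to 1.49) in IL34LacZ/+, and border cells below it, at 0.544 times (0.337 to 0.832) in IL34LacZ/LacZ and 0.582 times (0.384 to 0.848) in IL34LacZ/+. Fibroblast gated cells stood at 1.46 times (0.668 to 2.77) in IL34LacZ/LacZ and 3.84 times (2.63 to 5.42) in IL34LacZ/+.

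Slc12a2 passed 5 times the Ttr ratio in 7 of the 8 classes compared. In IL34LacZ/LacZ oligodendrocytes had 1044 CPM, pericytes 996 CPM and border cells 516 CPM, above the 275 CPM of choroid plexus cells. In IL34LacZ/+ these were 999.7, 1163 and 460.4 CPM, above the 248 CPM of choroid plexus cells. The median cells followed the sums, at 977, 864 and 449 CPM in IL34LacZ/LacZ and 956, 1024 and 416 CPM in IL34LacZ/+. Astrocytes had 42.6 CPM in IL34LacZ/LacZ and 29.8 CPM in IL34LacZ/+, and endothelial cells 38.2 CPM in IL34LacZ/LacZ and 24.0 CPM in IL34LacZ/+.

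Car2 was highest in oligodendrocytes, at 4005 CPM (3944 to 4066) in IL34LacZ/LacZ and 3902 CPM (3836 to 3970) in IL34LacZ/+, 614% of the choroid plexus level in IL34LacZ/LacZ and 583% in IL34LacZ/+. Astrocytes had 186 CPM in IL34LacZ/LacZ and 180.4 CPM in IL34LacZ/+, and endothelial cells 65.4 CPM in IL34LacZ/LacZ and 92.1 CPM in IL34LacZ/+. Per Ttr UMI, endothelial cells stood at 23.75 times the choroid plexus ratio in IL34LacZ/LacZ and 27.9 times in IL34LacZ/+. Barcodes under 1000 UMIs were near that, at 18.7 times in IL34LacZ/LacZ and 25.9 times in IL34LacZ/+. The red cell barcodes were no background for this gene, as erythrocytes are known to contain carbonic anhydrase 2. They held 2311 Car2 UMIs in IL34LacZ/LacZ and 838 in IL34LacZ/+, or 339 per 1000 Ttr UMIs in IL34LacZ/LacZ and 224 in IL34LacZ/+, against 2.67 in IL34LacZ/LacZ and 2.31 in IL34LacZ/+ in choroid plexus cells.

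Trpm3 stood at 7886 CPM (7723 to 8052) in astrocytes of IL34LacZ/LacZ and 6823 CPM (6716 to 6932) in those of IL34LacZ/+. The median astrocyte had 7597 CPM in IL34LacZ/LacZ and 6457 CPM in IL34LacZ/+, and UMIs were in 99.1% of them in IL34LacZ/LacZ and 98.8% in IL34LacZ/+. Border cells had 358 CPM in IL34LacZ/LacZ and 262 CPM in IL34LacZ/+, with a median cell of 106 CPM in IL34LacZ/LacZ and 134 CPM in IL34LacZ/+. In fibroblast gated cells 1 cell held 99.0% of 295 UMIs in IL34LacZ/LacZ and 1 held 66.0% of 659 UMIs in IL34LacZ/+, and the median cell was at 0. The 20 neuron gated cells of IL34LacZ/LacZ had 548 CPM on 76 UMIs and the 23 of IL34LacZ/+ 847 CPM on 98 UMIs, with 1 cell holding 44.7% of them in IL34LacZ/LacZ and 25.5% in IL34LacZ/+. Oligodendrocytes had 9.43 CPM in IL34LacZ/LacZ and 13.4 CPM in IL34LacZ/+, against 4.12 CPM in IL34LacZ/LacZ and 5.24 CPM in IL34LacZ/+ in red cell barcodes. Per Ttr UMI, oligodendrocytes stood at 3.30 times the choroid plexus ratio in IL34LacZ/LacZ and 7.25 times in IL34LacZ/+. Red cell barcodes stood at 2.29 times in IL34LacZ/LacZ and 6.98 times in IL34LacZ/+.

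**Figure D3:**
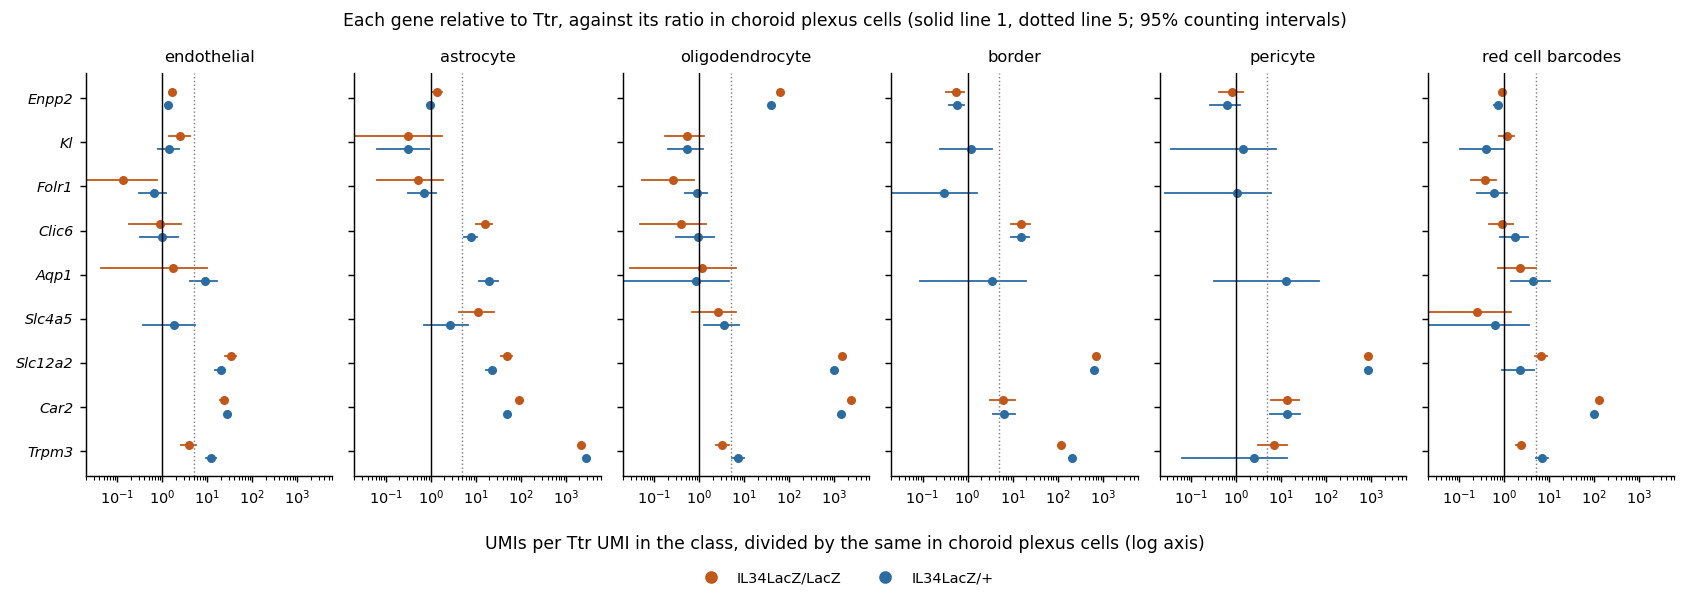
UMIs of 9 genes per Ttr UMI in 5 gated classes and in red cell barcodes, divided by the same ratio in choroid plexus cells of that library (log axis), with the library labelled IL34LacZ/LacZ in orange above the library labelled IL34LacZ/+ in blue and 95% counting intervals that end at the axis edge where they run past it. Genes with 0 UMIs have no point. Folr1 lies at or left of 1 in most classes, whereas Slc12a2 and Car2 in oligodendrocytes and Trpm3 in astrocytes lie at 996 times or more.

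Between the libraries, 1 of the 10 genes passed 1.5-fold with an interval leaving out 1 in choroid plexus cells, Trpm3, and 0 were lower by that rule. Of 9251 genes with at least 30 UMIs in these cells, 7.52% were higher in IL34LacZ/LacZ and 1.26% lower by the same rule, 8.79% in either direction, so 1 of 10 is near the background. The median log2 ratio, IL34LacZ/LacZ over IL34LacZ/+, was 0.05 over the 10 genes and 0.09 over all measured genes. Of all genes called, 696 were higher and 117 lower, and with Ttr left out of the totals 508 were higher and 192 lower.

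The Trpm3 ratio rested on few cells. On sums of all cells its log2 ratio was 1.28 (1.20 to 1.36). Of 4194 Trpm3 UMIs in IL34LacZ/LacZ, the richest cell held 1557 (37.1%) and the next 2 held 525 and 366, whereas of 2135 in IL34LacZ/+ the richest cell held 230 (10.8%) and the next 28. The 3 cells of IL34LacZ/LacZ were also deep, with 52385, 37514 and 28752 UMIs and 7365, 6447 and 5979 genes, and the class median of IL34LacZ/LacZ was 13791 UMIs and 2767 genes. Like every cell of this class by definition, they passed only the choroid plexus gate. They held 15, 15 and 14 of its 15 markers and 8013, 8501 and 5102 Ttr UMIs. Their summed astrocyte markers were 0.191, 0.533 and 2.09 per 10000 UMIs, with 1, 2 and 3 of 12 markers detected.

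With the 2% of cells with most Trpm3 UMIs left out of each library, the log2 ratio was 0.06 (-0.04 to 0.16). It was 0.45 in a random draw of 2000 UMIs per cell. Another such draw gave 703 CPM in IL34LacZ/LacZ and 425 CPM in IL34LacZ/+, so the thinned ratio depended on the draw. Choroid plexus gated barcodes over the mitochondrial limit, 201 in IL34LacZ/LacZ and 71 in IL34LacZ/+, entered none of these sums. In them Trpm3 stood at 429 CPM in IL34LacZ/LacZ and 456 CPM in IL34LacZ/+, and 0 of the 10 genes were called, beside 6.36% of 6143 measured genes. The cell of IL34LacZ/LacZ richest in Trpm3 weighed on other genes too. Of the 696 genes called higher, 140 (20.1%) had over 25% of their IL34LacZ/LacZ UMIs in it, against 2.41% of all measured genes, while it held 1.39% of the class UMIs.

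The other 9 genes lay within 1.5-fold. Ttr was lower in IL34LacZ/LacZ, at log2 -0.25 in the sums and -0.27 in the median cells, and at -0.02 in the barcodes over the mitochondrial limit. Clic6 was at 0.26 (0.17 to 0.36), Slc4a5 at 0.21 (0.04 to 0.38), Slc12a2 at 0.15 (0.02 to 0.27) and Kl at 0.12 (0.05 to 0.19). With Ttr left out of the totals Clic6 was at 0.17 (0.08 to 0.27), Slc4a5 at 0.12 (-0.05 to 0.29), Slc12a2 at 0.06 (-0.07 to 0.18) and Kl at 0.03 (-0.04 to 0.09), so the intervals of the last 3 then include 0. Without the 2% of cells highest for the gene Slc4a5 was at 0.07 (-0.11 to 0.26), and 1 cell of IL34LacZ/LacZ had held 7.44% of its UMIs. Enpp2 and Car2 were at -0.04, Folr1 at -0.01 and Aqp1 at -0.12 (-0.34 to 0.10).

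**Figure D4:**
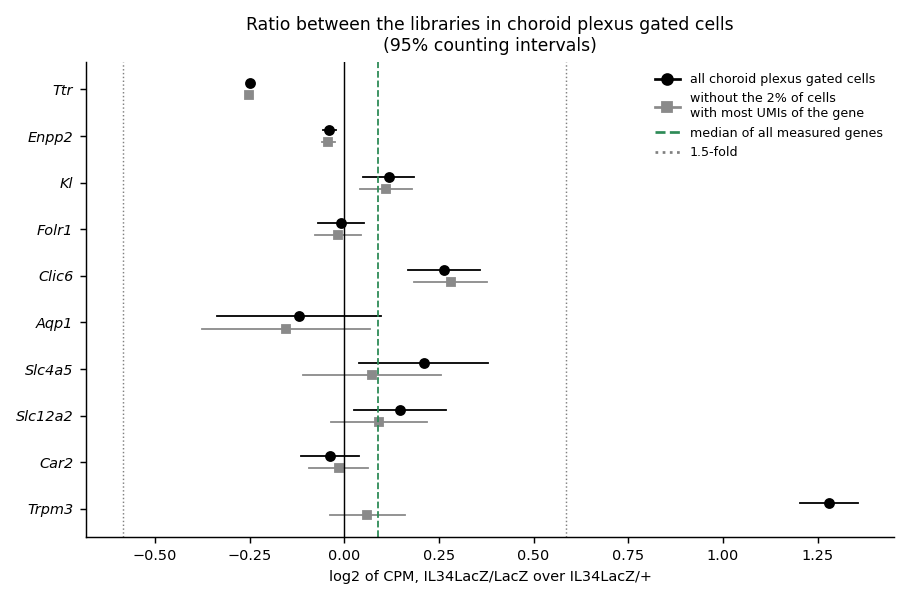
Log2 ratio of CPM in choroid plexus gated cells, IL34LacZ/LacZ over IL34LacZ/+, for the 10 genes, with all cells as black circles and without the 2% of cells richest in the gene as grey squares, and 95% counting intervals as bars. Trpm3 stands at 1.28 with all cells and at 0.06 without those cells, and the other 9 genes lie between the dotted lines of 1.5-fold under both.

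Outside choroid plexus cells, Ttr was lower in IL34LacZ/LacZ in each of 5 classes. In IL34LacZ/LacZ it stood at 630 CPM in oligodendrocytes, 781 in astrocytes, 1024 in pericytes, 1031 in endothelial cells and 654 in border cells. In IL34LacZ/+ it stood at 1174.5 CPM in oligodendrocytes, 1551 in astrocytes, 1609 in pericytes, 1434 in endothelial cells and 816 in border cells. The log2 ratios of the first 3, -0.90, -0.99 and -0.65, passed the rule, beside 2.47%, 4.19% and 6.74% of measured genes lower in those classes, and those of the last 2, -0.48 and -0.32, did not. Ttr in red cell barcodes was at 396 CPM in IL34LacZ/LacZ and 477 CPM in IL34LacZ/+ (log2 -0.27), and the part of free RNA in these differences was not tested. In IL34LacZ/+ 1 oligodendrocyte held 16.8% of its class Ttr UMIs and 1 astrocyte 18.8%, and without the 2% of cells highest in Ttr the log2 ratios were -0.65 and -0.72.

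The only other call in these 5 classes was Slc12a2 in endothelial cells, at 38.2 CPM in IL34LacZ/LacZ and 24.0 CPM in IL34LacZ/+ (log2 0.67, 0.14 to 1.20), beside 3.45% of measured genes higher. In border cells 0 of 5 measured genes were called, beside 8.72% of all genes. In their main sites outside the choroid plexus the genes lay within 1.5-fold, with Enpp2 at -0.08, Slc12a2 at 0.06 and Car2 at 0.04 in oligodendrocytes, and Trpm3 at 0.21 in astrocytes.

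Other genes of choroid plexus function were read from 8 lists, all as log2 ratios in choroid plexus gated cells, IL34LacZ/LacZ over IL34LacZ/+. Kcnj13, Kcne2, Sostdc1, Ecrg4, Wfdc2, F5, Lbp, Htr2c, Prlr, Cldn2 and Otx2 are in these lists and were also markers of the gate. The cells were thus chosen in part by the levels of these genes. In the list of ion and water transport 28 of 35 genes were measured, 1 was higher and 0 lower, beside 7.52% of all measured genes higher and 1.26% lower, with a median log2 ratio of -0.03. The kinase gene Oxsr1 was at 0.54 and the bicarbonate cotransporter gene Slc4a4 at -0.20, neither of them called. Of 26 measured carriers of vitamins, hormones and solutes 1 was higher, beside 7.52% of all genes, the amino acid transporter gene Slc7a8 at 0.77 (0.31 to 1.25), and the median was 0.06. The efflux pump gene Abcc1 stood at 0.42, the glucose transporter gene Slc2a1 at -0.42 and the organic anion transporter gene Slco1a5 at -0.52.

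Among 20 measured genes for secreted proteins 0 were called, beside 8.79% of all genes in either direction, and the median was -0.08. Their extremes were Igfbp7 at 0.31 and Bmp6 at 0.23, and Igf2 at -0.33 and the clusterin gene Clu at -0.28, with 1912 CPM in IL34LacZ/LacZ and 2318 CPM in IL34LacZ/+. Of 6 measured genes of klotho shedding and lysophosphatidic acid signalling 0 were called, beside 8.79% of all genes in either direction, with a median of -0.08. Fgfr1, whose product forms the receptor with klotho, was at 0.09, Plpp1 at 0.05, and the sheddase genes Adam17 and Adam10 were at -0.22 and -0.31.

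Of 13 measured receptor genes 1 was higher, close to the 7.52% of all genes, the serotonin receptor gene Htr2c, with 411 CPM in IL34LacZ/LacZ and 262 CPM in IL34LacZ/+ (log2 0.65, 0.54 to 0.76) and a list median of 0.15. As for Trpm3, 1 cell held much of it, 27.7% of its IL34LacZ/LacZ UMIs, and without the top 2% of cells its ratio was -0.08. Igf1r was at 0.38, and at -0.07 (-0.51 to 0.37) without the top 2% of cells. Lepr was at -0.26 (-0.56 to 0.03). Edn3 was at -0.53 (-1.59 to 0.47), on 14 UMIs in IL34LacZ/LacZ and 25 in IL34LacZ/+. Of 12 measured junction genes 2 were higher, beside 7.52% of all genes. Cldn12 was at 1.13 on 23 UMIs in IL34LacZ/LacZ and 13 in IL34LacZ/+. Cdh2 was at 0.83, with 25.4% of its 59 UMIs of IL34LacZ/LacZ in 1 cell, and at 0.21 (-0.60 to 1.02) without the top 2% of cells. The list median was -0.02, with Cldn3 at -0.30 and Cldn9 at -0.43.

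In the list of thyroxine handling 4 of 7 genes were measured and the thyroid hormone receptor gene Thrb was higher, 1 of 4 beside 7.52% of all genes, at 0.81 (0.30 to 1.32), with 35.4% of its IL34LacZ/LacZ UMIs in 1 cell and a ratio of -0.10 without the top 2% of cells. The transporter gene Slco1c1 stood at 0.04 and Thra at 0.12. Transcription factors were the list with most calls, 5 of 10 measured genes higher, 0 lower and a median of 0.67, beside 7.52% of all measured genes higher. They were Meis1, Rfx2, Rfx3, Lmx1a and Gmnc, and for Meis1, at 1.72, 1 cell held 79.2% of 24 UMIs in IL34LacZ/LacZ. Rfx2 was at 1.45 on 31 UMIs in IL34LacZ/LacZ and 14 in IL34LacZ/+, with 25.8% of those in IL34LacZ/LacZ in 1 cell, whereas Foxj1, a ciliogenesis factor, stood at -0.20 and Msx1 at -0.25. Rfx3 (1.16), Lmx1a (0.91) and Gmnc (0.73) were named after their values were seen. Without the top 2% of cells they stood at 0.46 (-0.05 to 0.98), 0.17 (-0.45 to 0.78) and 0.61 (0.13 to 1.09). Rfx2 then stood at 0.99 (-0.51 to 2.59) and Meis1 had no ratio, so only the Gmnc interval left out 0. For Rfx3 1 cell held 41.2% of the UMIs in IL34LacZ/LacZ.

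Over the 10 sums formed by 5 classes of at least 50 cells in 2 libraries, the log2 levels of Ttr, Kl, Folr1, Aqp1 and Slc4a5 ran together, with Pearson r of 0.997 for Ttr with Folr1 and 0.994 for Folr1 with Slc4a5. Trpm3 and Slc12a2 were the least alike pair, at -0.37, followed by Trpm3 and Car2 at -0.26. The points share their library, depth and free RNA, and the 2 libraries repeat the same classes, so these are descriptions. The gene most like the mean of the 10 was Saxo2 at 0.994, followed by Nrtn, Sowahc, Pierce2 and Comtd1. Ttr was most like the carnosine dipeptidase gene Cndp1 (0.998), Kl most like the leukotriene synthase gene Ltc4s (0.999), Folr1 most like 1700016K19Rik (0.999) and Trpm3 most like the glycogen phosphorylase gene Pygm (0.996). For Enpp2 it was Wdr72, for Clic6 Unc119, for Aqp1 Ak8, for Slc4a5 the immunoglobulin gene Igkc, for Slc12a2 Eif4a1 and for Car2 Itpk1, with r from 0.982 to 0.998.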

How the data were processed

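The deposited files hold UMI counts per gene and barcode, made by the authors in Cell Ranger (7.1.0, per the file headers) from 10x 3-prime v3.1 libraries, per the labels' protocols. Reads had been mapped to mm10, build GRCm38.p6 in the submitters' processing notes. The sources used here do not state the annotation release, intron counting, any removal of free RNA or the origin of the smallest total of 500 UMIs. Counts were used as deposited.

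Cells passed the limits given with the results. A class needed at least 3 and 30% of its markers and a summed marker level of 20 per 10000 UMIs (1000 for erythrocytes). Cells of several gates were left out, as possible doublets, and Scrublet (scanpy 1.11.5) was an added alternative. The libraries shared 8 barcodes. Counts were summed per class and library (scipy 1.17.1). CPM has exact Poisson intervals, log2 ratios exact conditional binomial intervals and shares exact Clopper-Pearson intervals. The ratio function was tested on simulated data. A gene was called past 1.5-fold with an interval leaving out 1, where the class held 30 UMIs of it or more over both libraries. A class cut from marker levels is a range and not a type.

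The 10 genes, the lists, the markers and the rules were chosen with earlier results of these data known, and the border marker list came from those results. Named genes are the 10 genes, the 2 highest and 2 lowest ratios of each list (3 genes of these lists are not reported here), and the genes of highest Pearson r of log2(CPM + 10) among genes with at least 100 UMIs. Positions are from GENCODE M21, and promoter windows that overlap an annotated exon were not printed. Alternatives covered the filter on cells, the gate, clusters made without the 10 genes, scaling, thinning, cells highest for a gene, the filter on low counts and the fold.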

Additional observations from a re-analysis of the deposited data

Results flagged for a closer look

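Choroid plexus gated barcodes over the mitochondrial limit were outside every sum of kept cells and were brought up as a signal in unused barcodes: they numbered 201 in the library labelled IL34LacZ/LacZ and 71 in the library labelled IL34LacZ/+. Trpm3 stood at 38.6% of its level in kept cells in IL34LacZ/LacZ and 99.7% in IL34LacZ/+, and the other 9 genes were between 86.7% and 124% in IL34LacZ/LacZ and between 71.2% and 120.0% in IL34LacZ/+. The Trpm3 level of kept cells in IL34LacZ/LacZ rested on few cells, as 1 held 37.1% of the UMIs. Its median cell did not differ in that way. It had 383 CPM kept and 384 CPM over the limit in IL34LacZ/LacZ, and 374 and 417 CPM in IL34LacZ/+. Ttr was at 234399.7 CPM in IL34LacZ/LacZ and 236938 CPM in IL34LacZ/+, Enpp2 at 16245 CPM in IL34LacZ/LacZ and 15714 CPM in IL34LacZ/+, and Folr1 at 945 CPM in IL34LacZ/LacZ and 767 CPM in IL34LacZ/+. The largest ratio between the libraries was that of Folr1, at log2 0.30 (0.16 to 0.45), and that of Slc4a5 was the same to 2 decimals, on an interval from -0.07 to 0.68.

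Red cell barcodes were used only as a measure of free RNA and were brought up because one of the 10 genes stood far above that measure there: they held 2311 Car2 UMIs in the library labelled IL34LacZ/LacZ and 838 in the library labelled IL34LacZ/+. Car2 UMIs were in 25.6% of these barcodes in IL34LacZ/LacZ and 28.2% in IL34LacZ/+, at 127 times the choroid plexus ratio to Ttr in IL34LacZ/LacZ and 97.4 times in IL34LacZ/+. Slc12a2 stood at 6.51 times (4.80 to 8.65) in IL34LacZ/LacZ and 2.19 times in IL34LacZ/+. Trpm3 stood at 2.29 times in IL34LacZ/LacZ and 6.98 times (4.99 to 9.50) in IL34LacZ/+. Each was over 5 times in one library, with an interval that reached below 5.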

How the results depend on the processing

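No paired analysis was possible because there was 1 library per genotype, and for the same reason no replicate could be left out. Of 12 alternatives, 10 were planned and 2, Scrublet and a limit of 5500 genes, were chosen after seeing the data. Among 100 recomputed ratios of the 10 genes in choroid plexus cells, 74 stayed within the counting interval and 26 left it. Changes of sign were counted only for the called gene, Trpm3, and there were 0. Among genes not called, Enpp2 went from -0.04 (-0.06 to -0.02) to 0.02 (0.01 to 0.04) with no mitochondrial limit. In every alternative run 7 genes were highest in choroid plexus cells. The number of genes that met the rule of 5 times their Ttr ratio was 6 in all alternatives run on it but thinning, where it was 4.

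The share of choroid plexus cells was 24.5% in IL34LacZ/LacZ and 19.8% in IL34LacZ/+ with no mitochondrial limit. With Ttr left out of the totals the median log2 ratio of the 10 genes was -0.037. The 1 called gene, Trpm3, became 0 with thinning to 2000 UMIs, without the 2% of cells highest for the gene and without cells with over 5500 genes (254 cells of IL34LacZ/LacZ and 347 of IL34LacZ/+ left), where its ratio was 0.21, and its ratio was 0.90 with no mitochondrial limit. Thinning here was a single random draw. In another draw Trpm3 stood at 703 CPM in IL34LacZ/LacZ and 425 CPM in IL34LacZ/+, so the loss of the call with thinning depended on the draw. Of the lists, 11 genes were called higher, beside 7.52% of all measured genes: 0 with thinning, 2 without the 2% of cells, 2 without cells over 5500 genes and 5 at 2-fold. Called lower were 0: 1 with no mitochondrial limit, 1 with Ttr left out, 1 without the 2% of cells, 1 with median-of-ratios scaling, 1 with no filter on low counts, 2 with thinning and 2 without cells over 5500 genes. Of all measured genes 696 were higher, against 104 with thinning, 422 without the 2% of cells, 286 at 2-fold and 319 without cells over 5500 genes, and 117 lower, against 74, 159, 35 and 137. These counts have unlike totals. Measured were 9251 genes in the main run and at 2-fold and 3638 with thinning. Without the 2% of cells 8105 were measured, and without cells over 5500 genes 9055. With median-of-ratios scaling 508 were higher and 191 lower.

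Ratios of Aqp1, Slc4a5 and Folr1 to Ttr outside the choroid plexus rest on few UMIs per class and have wide counting intervals. Genotype cannot be told apart from library, mouse and preparation.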
